A study of Mus musculus with 2 samples.

Results

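The cells described here were chosen by measured values of *Ncr1*, *Cxcr6*, *Eomes*, the CD3 chains and the T cell receptor alpha constant gene. They are barcodes of a mouse liver single-cell RNA-Seq experiment that carried transcripts of *Ncr1* and *Cxcr6* and none of the others. By this rule they are labeled group 1 innate lymphoid cells of the resident type (ILC1). The label rests on the rule, and whether single members are T cells was not tested. A barcode was called a cell at 1500 or more unique molecular identifiers (UMIs, each 1 captured transcript) with under 10% of them mitochondrial. It entered the ILC1 gate with at least 1 UMI of *Ncr1*, at least 1 UMI of *Cxcr6*, and 0 UMIs each of *Eomes*, *Cd3d*, *Cd3e*, *Cd3g* and *Trac*. The gate held 92 of 16052 called barcodes, 59 of 9002 in the vehicle library and 33 of 7050 in the antibiotic library. *Ncr1* lies at chr7:4337724-4345164 on the plus strand and *Cxcr6* at chr9:123806475-123811760 on the plus strand (GENCODE vM21, GRCm38). Because the gate is itself a readout of these libraries, the levels of its 7 genes are descriptions only. The T cell receptor beta constant genes *Trbc1* and *Trbc2* are not part of the rule. Together they had a median of 5 UMIs per vehicle and 4 per antibiotic gate cell, against 1 and 1 in *Eomes*+ NK cells.

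ILC1 are tissue-resident lymphocytes without rearranged antigen receptors. They share the activating receptor NKp46 (encoded by *Ncr1*) and the transcription factor T-bet with circulating NK cells, but lack Eomes, the factor that marks NK cells, and in the liver they carry CXCR6, a chemokine receptor that retains lymphocytes in the sinusoids. They are known for rapid IFN-γ production, for TRAIL (encoded by *Tnfsf10*) and for integrin α1 (encoded by *Itga1*, CD49a) on their surface.

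CD45+ leukocytes were sorted by FACS from livers of 6-week-old female mice that drank either vehicle or an antibiotic mixture, and each condition was captured as 1 library with the Chromium 3′ v2 kit. The mixture held ampicillin at 1 mg/mL, vancomycin at 0.5 mg/mL, neomycin at 0.5 mg/mL and metronidazole at 1 mg/mL. The study's methods give 1 week as the shortest treatment, and its length for these libraries is not stated in the labels. How many mice were pooled for a library is not stated in the labels or methods read here. With 1 library per condition there is no replicate check and no test, and treatment, mice, sort and capture cannot be told apart. Every interval below is a 95% interval for counting error only, exact binomial (Clopper-Pearson) for a share and exact conditional Poisson for a ratio.

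The libraries held 41474311 (vehicle) and 29811401 (antibiotics) UMIs, with a median of 3515 and 3331 per called barcode. Gate cells held 223460 UMIs in all in the vehicle library, with 1593, 3474 and 8749 as the lowest, median and highest per cell. In the antibiotic library they held 98181 UMIs, with 1682, 2828 and 6412. Gate cells of the antibiotic library were thus shallower at the median, and shares of cells with a UMI are given as counted and after each cell was thinned to 1500 UMIs. The libraries shared 93 called barcode sequences, where 86.1 are expected by chance from the kit's barcode list.

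The gate had no gap at its edge in counts of T cell receptor transcripts. Among *Ncr1*+ *Cxcr6*+ *Eomes*- cells of the vehicle library, 59 had 0 UMIs of the CD3 genes and *Trac*, 31 had 1 and 9 had 2. A further 12 had 3, 10 had 4, 16 had 5 and 347 had 6 or more. In the antibiotic library 33 had 0, 18 had 1, 13 had 2, 10 had 3, 11 had 4, 8 had 5 and 83 had 6 or more. Cells with a single such UMI, just outside the gate, were therefore fewer than those inside it in both libraries. Cells with any CD3 or *Trac* UMI, called T cell receptor-positive below, had a median of 15 such UMIs in the vehicle and 6 in the antibiotic library.

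**Figure D1:**
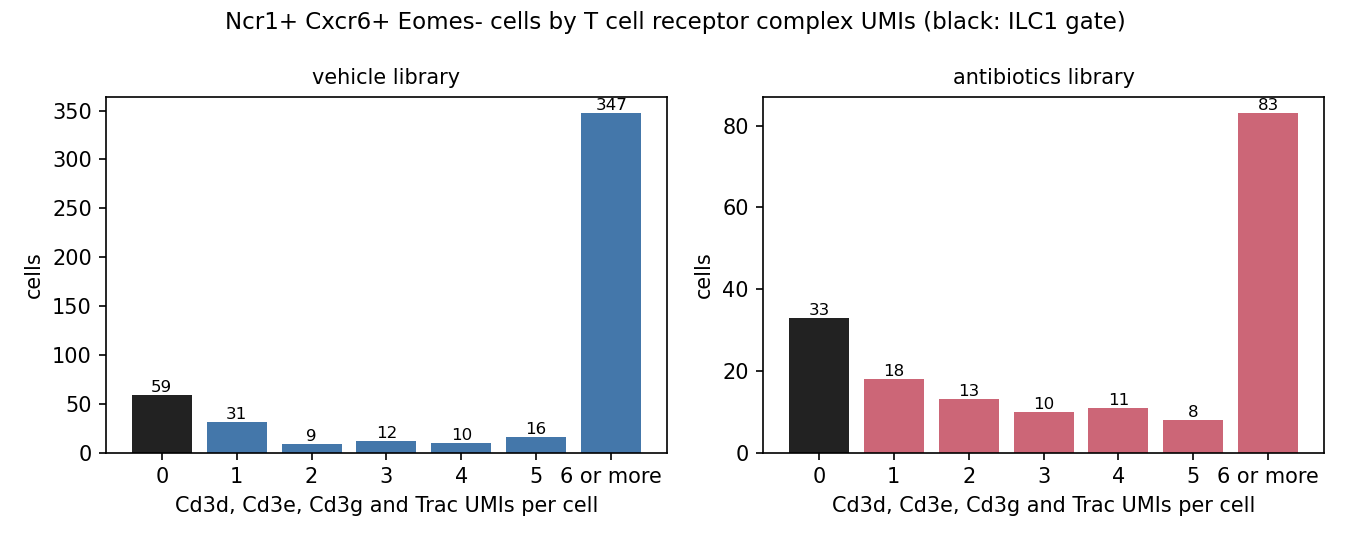
Number of *Ncr1*+ *Cxcr6*+ *Eomes*- cells (vertical axis, cells) by the UMIs of *Cd3d*, *Cd3e*, *Cd3g* and *Trac* in each cell (horizontal axis), for the vehicle library (left) and the antibiotic library (right), with the gate cells in black. The 59 and 33 gate cells stand beside 31 and 18 cells with a single such UMI, and the highest bars are cells with 6 or more.

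Inside the gate, *Ncr1* was counted at 1, 5 and 15 UMIs (lowest, median, highest) per vehicle cell and at 1, 3 and 10 per antibiotic cell. *Cxcr6* was counted at 1, 2 and 8 UMIs per cell in both libraries. Many members were thus near the threshold, with a single *Cxcr6* UMI in 19 of 59 vehicle and 16 of 33 antibiotic cells, and a single UMI of each gene in 4 and 8 cells. Few cells lay just outside by *Eomes*, where 2 vehicle cells and 1 antibiotic cell failed by a single *Eomes* UMI. Below the UMI threshold, 2 of 140 vehicle barcodes and 0 of 92 antibiotic barcodes with at least 1000 UMIs but fewer than 1500 met the gene rule.

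The label was set beside genes outside the rule, against *Eomes*+ NK cells (*Ncr1*+ *Eomes*+ without CD3 or *Trac*, 71 vehicle and 23 antibiotic cells). The marker lists were chosen with earlier results of these data known. Marker levels and counts therefore describe the gate and are no independent check of the label. Levels are given as CPM, the UMIs of a gene per 1000000 UMIs, both summed over the cells of a class. *Itga1* stood at 49.2 CPM (vehicle) and 40.7 CPM (antibiotics) in the gate and had no UMI in either NK class. *Tnfsf10* stood at 62.7 and 61.1 CPM in the gate, also with no UMI in NK cells. *Cd200r1*, an inhibitory receptor that marks ILC1, stood at 89.5 and 61.1 CPM in the gate against 4.35 and 0 in NK cells. *Lag3*, a checkpoint receptor, stood at 94.0 and 61.1 CPM against 34.8 and 0. Against a floor of 3 UMIs in the NK class, *Itga1* and *Tnfsf10* were at least 3.77-fold and 4.80-fold higher in the vehicle gate. In the antibiotic library the floor gives no fold for *Itga1* and at least 1.18-fold for *Tnfsf10*, *Cd200r1* and *Lag3*, so the absence of UMIs there says little. These 4 genes were sparse, with 11, 14, 20 and 21 UMIs over the 59 vehicle cells and 4, 6, 6 and 6 over the 33 antibiotic cells. In B cells, which should lack them, between 0 and 0.162% of vehicle cells carried a UMI of *Itga1*, *Tnfsf10*, *Cd200r1* or *Lag3* after thinning, against 8.47 to 15.3% of gate cells, or 15.3 to 30.5% of gate cells before thinning (median depths 2498 and 3474 UMIs).

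Better counted ILC1 markers were also higher in the gate than in NK cells. *Tmem176b*, a membrane protein gene of resident lymphocytes, stood at 376 and 469 CPM in the gate and at 13.1 and 17.2 in NK cells, a ratio of 28.8 (9.52 to 142) in the vehicle and 27.2 (4.64 to 1097) in the antibiotic library. Its neighbor *Tmem176a* stood at 206 and 224 CPM, with no UMI in NK cells, which makes it at least 15.8-fold and 4.33-fold higher in the gate against a floor of 3 UMIs per NK class. After thinning, a gate cell carried a median of 5 ILC1 markers and 1 NK marker in both libraries, and an NK cell 1 and 6. *Ncr1*+ *Cxcr6*+ cells with CD3 or *Trac* carried a median of 4 and 1, and 93.4% and 93.0% of them had more ILC1 than NK markers, against 84.7% and 87.9% of gate cells.

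**Figure D2:**
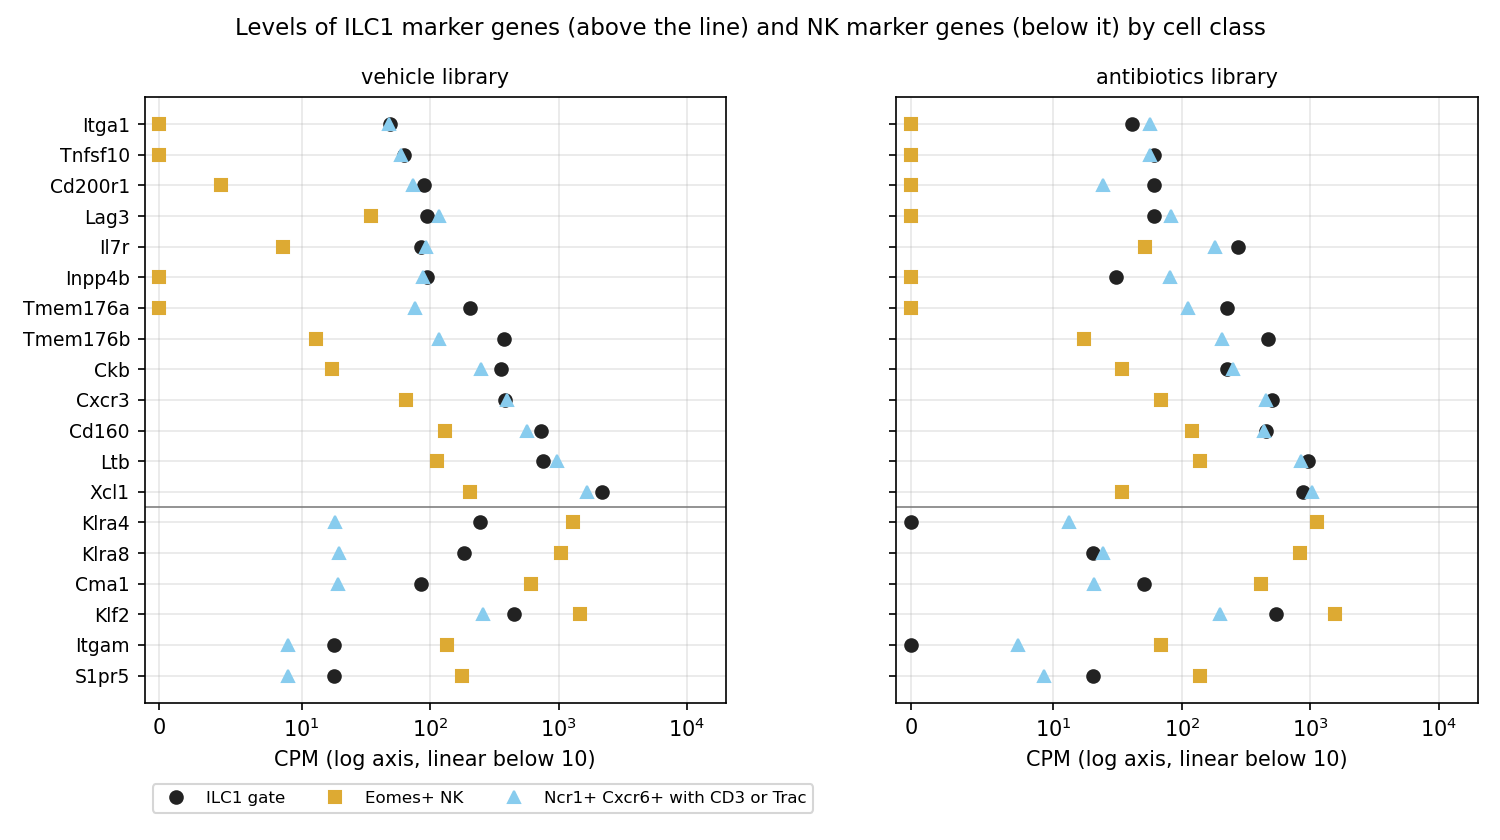
Level (horizontal axis, CPM, log axis that is linear below 10) of 13 chosen of the 21 ILC1 markers above the grey line and 6 of the 18 NK markers below it, in gate cells (black circles), *Eomes*+ NK cells (yellow squares) and T cell receptor-positive cells (blue triangles), for each library. Each ILC1 marker shown stands right of the NK squares in gate cells of both libraries, and the T cell receptor-positive cells lie close to the gate cells for most of them. *Zfp683* and *Itgae*, ILC1 markers without a UMI in the gate, are not shown.

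The markers set the gate apart from NK cells but less from the *Ncr1*+ *Cxcr6*+ cells that carried CD3 or *Trac*. *Itga1*, *Tnfsf10* and *Lag3* stood at 47.8, 59.0 and 117 CPM in the T cell receptor-positive cells of the vehicle library, near their gate levels. Of the label genes *Cd200r1* and *Lag3*, only 1 had enough UMIs to count here. It was lower in the gate in both libraries, at log2 ratios of -0.29 (vehicle) and -0.33 (antibiotics). Of the 2830 genes counted in both classes, 2.3% were 1.5-fold or more higher in the gate in both libraries and 1.27% lower. The T cell receptor beta constant genes *Trbc1* and *Trbc2* together had a median of 5 UMIs per vehicle and 4 per antibiotic gate cell, against 9 and 7 in T cell receptor-positive cells and 1 and 1 in NK cells. Only 4 and 2 gate cells had no *Trbc* UMI, and requiring *Trbc*, *Trdc* and *Tcrg-C* UMIs to be 0 as well left 3 and 1 cells. The same rule cut NK cells from 71 to 10 and from 23 to 3, so most NK cells carried a UMI of these genes too. Whether single members are T cells whose CD3 and *Trac* transcripts were not captured was not tested. The name ILC1 is used below for the gate as a whole with this limit.

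Several genes nevertheless differed between the gate and the T cell receptor-positive cells beyond counting error in both libraries. *Tmem176b* was 3.22-fold (2.47 to 4.15) higher in the gate in the vehicle and 2.27-fold (1.57 to 3.23) in the antibiotic library. *Runx3*, a transcription factor of cytotoxic and resident lymphocytes, was 1.49-fold (1.11 to 1.97) and 1.95-fold (1.22 to 3.04) higher. *Klrk1*, which encodes the activating receptor NKG2D, was 1.47-fold (1.29 to 1.66) and 1.56-fold (1.31 to 1.85) higher, and of 14 activating receptor and adaptor genes 9 were higher in the gate in both libraries and none was lower in both, where 884 of all 2830 genes were higher in both and 566 lower. In the other direction, the Ly49 gene *Klra5* stood at 4.48 and 30.6 CPM in the gate, 1 and 3 UMIs, against 189.7 and 172 CPM, and *Thy1* at 269 and 163 against 447 and 433. Both classes were cut from transcripts of the same cells, so these differences are descriptions of the gate.

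Markers of other innate lymphoid cells were nearly absent. *Il22*, *Il17a* and *Il13*, which mark ILC3 and ILC2, had 0 UMIs in the gate cells of both libraries, and 11 of 14 genes of that list had none. *Gata3*, which ILC2 need but other lymphocytes also express, stood at 112 and 102 CPM. Of the 21 ILC1 markers themselves, 2 also had no UMI in the gate of either library. These were *Zfp683*, which encodes the residency factor Hobit, and *Itgae*, which encodes integrin αE. Their absence does not speak for the label. Neutrophil, hepatocyte, endothelial and erythroid markers summed to 7, 18, 12 and 6 UMIs over all vehicle gate cells and to 0, 16, 8 and 0 over all antibiotic gate cells.

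B cell and myeloid markers summed higher. The 18 myeloid markers held 922 UMIs (4126 CPM) in the vehicle gate and 297 UMIs (3025 CPM) in the antibiotic gate. The part of this sum from genes that lymphocytes also express was not separated. UMIs of *Cd79a*, *Cd79b* and *Ms4a1* were at 0 in 36 of 59 vehicle and 24 of 33 antibiotic gate cells, but 5 vehicle cells carried 13 to 29 and 3 antibiotic cells 10 to 34. Of these, 4 and 2 were scored as doublets. Doublets made up 10.2% and 9.09% of gate cells, against 4.44% and 2.0% of all called barcodes. The 14 B cell markers together stood at 6023 CPM and 5276 CPM in the gate. They stay in all values, and the genes that depend on them are named as such.

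Some gate cells carried more NK than ILC1 markers. After thinning, this held for 7 of 59 vehicle and 4 of 33 antibiotic gate cells, and all of them had exactly 1 *Cxcr6* UMI. In 2 of the 4 antibiotic cells this rests on 2 NK markers against 1 ILC1 marker, and 1 of these carried 34 B cell UMIs and no UMI of *Gzma*, *Gzmb* or *Ccl5*. These cells held all 55 *Klra4* and all 41 *Klra8* UMIs of the vehicle gate, both genes of Ly49 receptors typical of NK cells. They held 33.1% of the *Gzma* UMIs of the vehicle gate and 42.5% of those of the antibiotic gate, but 0.613% and 3.49% of the *Xcl1* UMIs. In the 40 vehicle and 17 antibiotic gate cells with 2 or more *Cxcr6* UMIs, 7 of the 18 NK markers had 0 UMIs in both libraries, *Klra4*, *Klra8*, *Cma1*, *Itgam* and *S1pr5* among them. Not every NK marker followed. *Klra9* stood at 203 CPM in the vehicle and 302 CPM in the antibiotic cells with 2 or more *Cxcr6* UMIs, and at 290.3 CPM and 144 CPM in those with 1. *Emb* (133 against 30.6 CPM with vehicle, 101 against 61.8 CPM with antibiotics) and *Ly6c2* (82.3 against 76.4 CPM, 262 against 185 CPM) were higher with 2 or more *Cxcr6* UMIs in both libraries. *Zeb2*, a factor of mature NK cells, stood at 168 CPM in vehicle gate cells with 1 *Cxcr6* UMI and at 12.7 CPM in those with more. *Tmem176b* did not follow that pattern, with 428 and 354 CPM.

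The first comparison is the share of called barcodes in the gate with and without antibiotics. A share gives no number of cells per liver. The study reports a large loss of total hepatic CD45+ cells with antibiotics, which shares within each library cannot show. Gate cells made up 0.655% (0.499 to 0.845) of called barcodes in the vehicle library and 0.468% (0.322 to 0.657) in the antibiotic library. The ratio of the shares was 0.714 (0.452 to 1.11), so a difference in share was not detectable at this number of cells. Under 3 stricter rules the interval lay below 1, with a ratio of 0.530 (0.307 to 0.887) for cells of 2500 or more UMIs, 0.534 (0.313 to 0.883) for 2 or more *Ncr1* UMIs and 0.543 (0.288 to 0.979) for 2 or more *Cxcr6* UMIs. NK cells made up 0.789% and 0.326%, with a ratio of 0.414 (0.247 to 0.670), and T cell receptor-positive cells 4.72% and 2.03%, with a ratio of 0.430 (0.353 to 0.520). The interval of the gate's ratio overlaps both of these, and a difference between classes was not tested.

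Among *Ncr1*+ cells without CD3 or *Trac*, the gate made up 22.7% (17.7 to 28.3) in the vehicle and 33.7% (24.4 to 43.9) in the antibiotic library. Against NK cells alone, it made up 45.4% (36.6 to 54.3) and 58.9% (45.0 to 71.9) of the sum of both. The ILC1 share within the *Ncr1*+ compartment was higher with antibiotics on both counts, with overlapping intervals. A gate on single UMIs moves with depth. When every called barcode was thinned to 1500 UMIs before gating, the gate held a mean of 48.15 and 26.3 cells over 20 draws, and the ratio of shares had a mean of 0.710, with draws from 0.497 to 1.09.

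**Figure D3:**
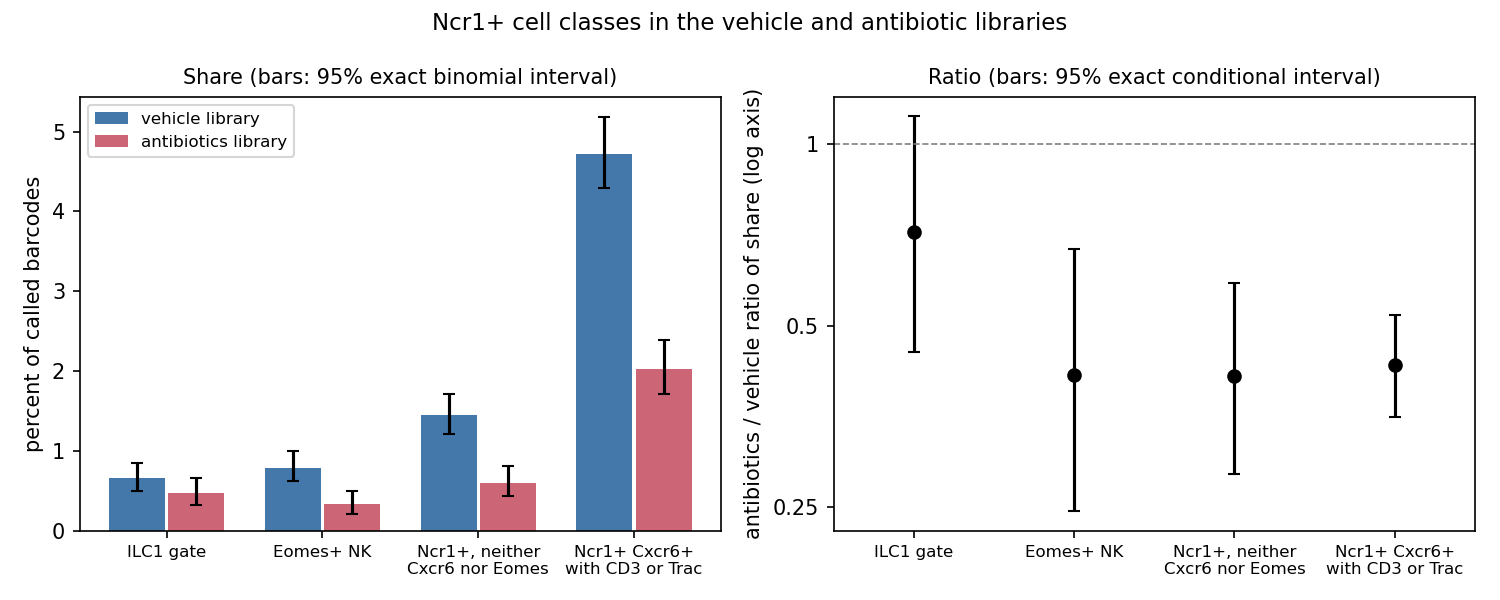
Left, share of called barcodes (vertical axis, percent, bars from 0) of 4 *Ncr1*+ classes in the vehicle (blue) and antibiotic (red) libraries. Right, the antibiotic over vehicle ratio of each share (log axis), where error bars are 95% exact intervals in both panels; the interval of the ILC1 gate spans 1 (0.452 to 1.11), while those of the other 3 classes lie below 1.

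Single genes were then compared between the gate and NK cells. Of 657 genes counted, 4.87% were 1.5-fold or more higher in the gate in both libraries and 5.94% lower, and of 5 cytokine and chemokine genes 2 were higher in both libraries and 2 lower. *Xcl1*, the chemokine that attracts cross-presenting dendritic cells, was 10.7-fold (7.92 to 14.8) higher in the gate in the vehicle library and 25.4-fold (6.83 to 213) in the antibiotic library. *Cxcr3*, a receptor for interferon-induced chemokines, was 5.83-fold (3.34 to 10.9) and 7.24-fold (2.65 to 27.6) higher, and *Ltb*, the lymphotoxin β gene, 6.72-fold (4.43 to 10.6) and 6.95-fold (3.38 to 16.6). The receptor gene *Cd160* was 5.59-fold (3.77 to 8.55) and 3.72-fold (1.66 to 9.78) higher, and *Cd7*, a surface protein of T and innate lymphocytes, 8.68-fold (7.02 to 10.8) and 5.15-fold (3.37 to 8.22). All of these intervals lie above 1 in both libraries, but the leading genes were picked by that bound, so this is no separate support.

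Survival and death genes were higher in the gate than in NK cells in 7 of 7 counted, against 197 of all 657 genes higher in both libraries, and 5 of them were 1.5-fold or more higher in both. A gene could pass the limit of 30 UMIs through the gate alone, so this count is a description. Among them were *Gimap3*, a GTPase of lymphocyte survival, at 2.34-fold (1.79 to 3.08) and 2.36-fold (1.51 to 3.83), and *Bcl2* at 1.86-fold (1.36 to 2.57) and 2.15-fold (1.33 to 3.62). *Ly6e* and the serine protease inhibitor gene *Serpina3g* completed the higher genes, at 2.88-fold and 2.09-fold and at 4.37-fold and 4.43-fold in the vehicle and antibiotic libraries. *Apoe*, which encodes an apolipoprotein of macrophages, was 3.6-fold and 17.7-fold higher by value, but 76.7% of its UMIs in the antibiotic gate came from 1 cell, and the ratio turned below 1 there without the cells of 10 or more B cell UMIs.

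The genes furthest below the NK level included *Gzma* and several Ly49 genes. *Gzma*, which encodes granzyme A, stood at 5669.9 and 2658 CPM in the gate and 15448 and 10699.9 in NK cells, a ratio of 0.367 (0.344 to 0.391) and 0.248 (0.214 to 0.288). *Klf2*, a factor that maintains circulation, stood at 0.308 (0.244 to 0.386) and 0.348 (0.243 to 0.494) of its NK level, and *Irf8* at 0.280 (0.202 to 0.380) and 0.190 (0.0789 to 0.414). The Ly49 genes *Klra8* and *Klra9* stood at 0.176 (0.123 to 0.247) and 0.332 (0.237 to 0.458) of the NK level in the vehicle and at 0.0246 (0.00290 to 0.0940) and 0.183 (0.108 to 0.299) in the antibiotic library. *Lgals1*, *Anxa2*, *H2afz* and *Ly6c2* were lower too, at 0.327, 0.377, 0.287 and 0.101 of the NK level with vehicle and 0.194, 0.245, 0.370 and 0.224 with antibiotics. *Klra4* had no UMI in the antibiotic gate, at least 36.7-fold lower than in NK cells against a floor of 3 UMIs over the gate cells of that library.

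Granzymes did not all follow *Gzma*. *Gzmc*, which encodes granzyme C, stood at 89.5 and 153 CPM in the gate and had no UMI in NK cells, at least 6.86-fold and 2.96-fold higher against the floor. In the antibiotic gate 80.0% of the *Gzmc* UMIs came from 1 cell. *Gzmb*, which encodes granzyme B, was 2.0 (1.68 to 2.40) times its NK level in the vehicle gate and 0.739 (0.466 to 1.18) times in the antibiotic gate. *Prf1*, which encodes the pore-forming protein perforin, was lower in the gate, at 0.280 (0.118 to 0.599) and 0.197 (0.0343 to 0.790) of the NK level.

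The second comparison is expression in the gate with antibiotics against vehicle. Of 1502 genes with 30 or more UMIs over both libraries, 148 (9.85%) were 1.5-fold or more higher with antibiotics and 284 (18.9%) were 1.5-fold or more lower. By direction alone, 673 were higher and 829 lower. The interval lay above 1 for 133 genes (8.85%) and below 1 for 164 (10.9%). The median log2 ratio of all counted genes was -0.08, and lists below are read beside that value. The leading ratios are set beside the ratio over all called barcodes, since both libraries differed in many genes across cell classes.

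**Figure D4:**
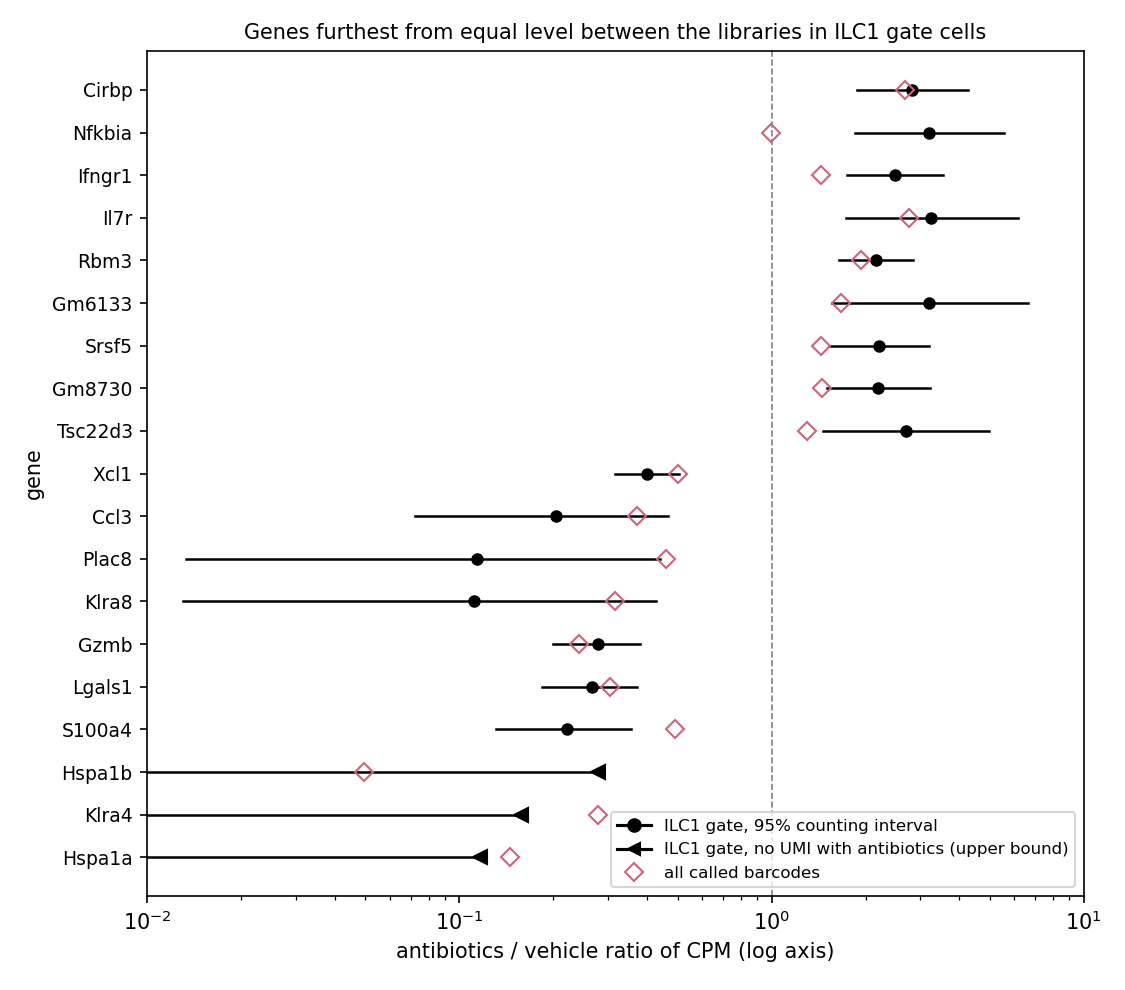
Antibiotic over vehicle ratio of CPM (horizontal axis, log axis) in ILC1 gate cells for 9 of the 10 higher genes and the 10 lower genes by the interval bound nearest 1 (black circles with 95% counting intervals; left-pointing triangles mark the upper bound of genes with no UMI in the antibiotic gate). Open diamonds give the same ratio over all called barcodes, which lie near the circles for *Gzmb*, *Cirbp* and *Il7r* and far from them for *Nfkbia* and *S100a4*.

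Most cytotoxic granule genes were lower in the antibiotic gate. Of 11 counted, 9 were lower, 6 of them by 1.5-fold or more, and 1 was higher by that much, with a median log2 ratio of -0.68. Among all 1502 genes counted, 829 were lower and 284 of these by 1.5-fold or more. *Gzmb* per 10000 UMIs ranged over 0, 12.4 and 89.4 (lowest, median, highest cell) in the vehicle gate and over 0, 0 and 26.8 in the antibiotic gate. The antibiotic range lay wholly inside the vehicle range, and some vehicle cells reached higher levels. Summed over cells, *Gzmb* stood at 1647 CPM with vehicle and 458 CPM with antibiotics, a ratio of 0.278 (0.200 to 0.380), beside 0.241 over all called barcodes. A UMI of *Gzmb* was present in 46 of 59 and 16 of 33 gate cells, or in 69.5% and 39.4% after thinning, and in 1.89% and 0.725% of thinned B cells (median depths 2498 and 2154 UMIs before thinning).

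*Gzma* per 10000 UMIs ranged over 0, 8.36 and 363 in the vehicle gate and over 0, 0 and 209 in the antibiotic gate. Its summed level was 5669.9 CPM with vehicle and 2658 CPM with antibiotics, a ratio of 0.469 (0.409 to 0.536), beside 0.263 over all called barcodes and 0.693 in NK cells. It was carried by 36 of 59 and 14 of 33 gate cells, 54.2% and 39.4% after thinning, against 6.33% and 2.29% of B cells. Among single cells, 29 of 59 vehicle cells (49.2%) carried both granzymes and 6 (10.2%) carried neither. In the antibiotic gate, 11 of 33 cells (33.3%) carried both and 14 (42.4%) neither. After thinning, 44.1% of vehicle and 24.2% of antibiotic cells carried both and 20.3% and 45.5% neither, so cells without either transcript took a larger share with antibiotics at equal depth too.

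Further granule genes were lower to unequal degrees. *Nkg7*, a regulator of granule release, was counted at 3732 CPM with vehicle and 1935 with antibiotics, a ratio of 0.519 (0.441 to 0.608), and *Ctsw*, which encodes cathepsin W, at 1262 and 784, a ratio of 0.621 (0.477 to 0.802). *Srgn*, the proteoglycan core of the granule, had a ratio of 0.780 (0.591 to 1.02). *Prf1* had 9 and 3 UMIs, too few to tell a difference, with a ratio of 0.759 (0.132 to 3.04). *Gzmc* was the 1 gene of the list 1.5-fold higher by value, at 1.71 (0.813 to 3.51), an interval that spans 1, and the direction turned without the highest cell of each library.

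**Figure D5:**
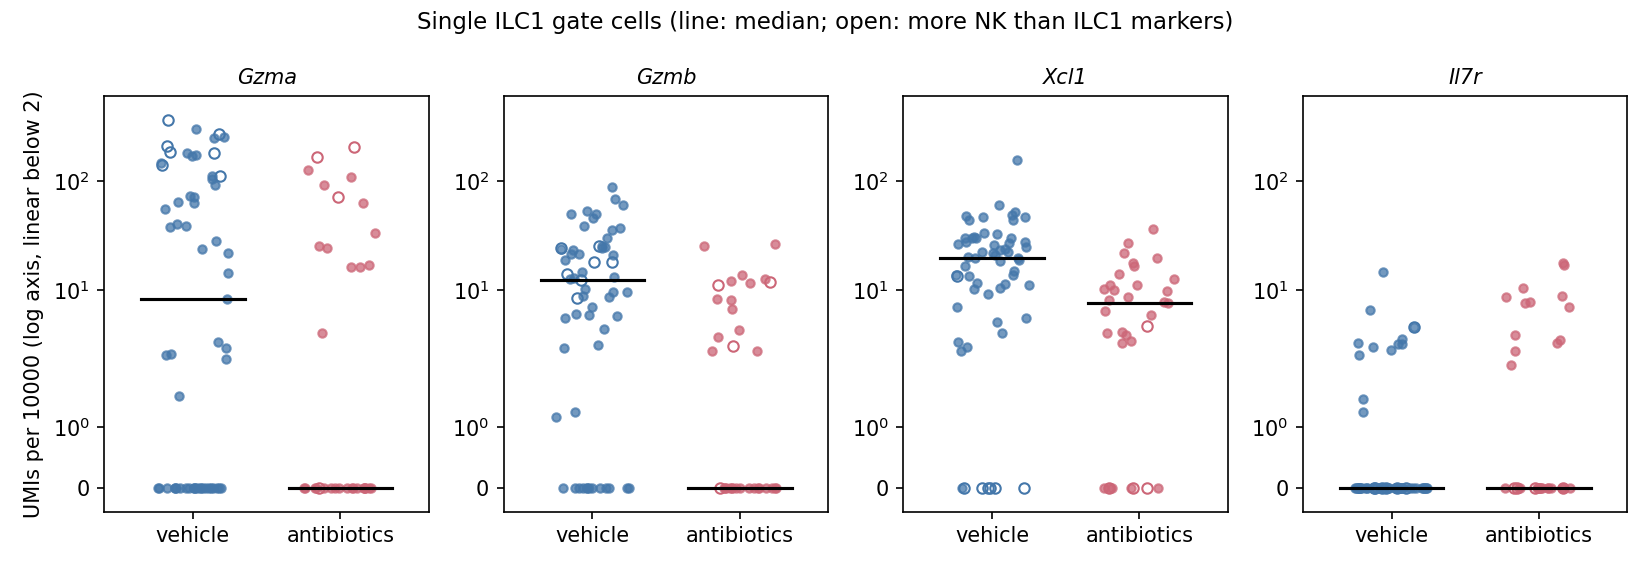
UMIs per 10000 (vertical axis, log axis that is linear below 2) of *Gzma*, *Gzmb*, *Xcl1* and *Il7r* in each of the 59 vehicle (blue) and 33 antibiotic (red) gate cells, with a line at the median; open circles are the 7 and 4 cells with more NK than ILC1 markers. The median of *Gzmb* is 12.4 with vehicle and 0 with antibiotics, that of *Xcl1* 19.8 and 7.73, and the open circles are above 0 for *Gzma* in all 7 vehicle cells and in 3 of the 4 antibiotic cells, and mostly at 0 for *Xcl1*.

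*Xcl1* was lower with antibiotics as well. Per 10000 UMIs it ranged over 0, 19.8 and 156 in the vehicle gate and over 0, 7.73 and 36.9 in the antibiotic gate, so that the antibiotic cells covered only the lower part of the vehicle range. The summed level was 2188 CPM with vehicle and 876 CPM with antibiotics, a ratio of 0.400 (0.315 to 0.504), beside 0.501 over all called barcodes and 0.615 in T cell receptor-positive cells. Cells with a UMI made up 88.1% and 75.8% of the gate, or 78.0% and 51.5% after thinning, and 2.33% and 0.604% of thinned B cells. Cells with 5 or more *Xcl1* UMIs numbered 40 of 59 and 6 of 33.

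*Gzma*, *Gzmb* and *Xcl1* were all lower in the antibiotic gate, and the 250 bases before each start (RefSeq, GRCm38.p6, printed 5′ to 3′ on the gene's strand) are shown because Runx3 and the T-box factor T-bet are known regulators of such effector genes. Capitals mark the Runx core TGTGGT or its reverse complement ACCACA and the T-box half-site TCACACC or its reverse complement GGTGTGA, searched on both strands, which share no overlapping letters here. *Gzma* lies at chr13:113093825-113100981 on the minus strand, *Gzmb* at chr14:56258838-56262260 on the minus strand and *Xcl1* at chr1:164931644-164935527 on the minus strand (GENCODE vM21, GRCm38), and the windows lie directly upstream of the RefSeq starts. The last bases of the *Xcl1* window fall inside the GENCODE gene. The RefSeq start of *Gzmb* lies upstream of the GENCODE start, so its window sits farther from the annotated gene.
Gzma, chr13:113100982-113101231: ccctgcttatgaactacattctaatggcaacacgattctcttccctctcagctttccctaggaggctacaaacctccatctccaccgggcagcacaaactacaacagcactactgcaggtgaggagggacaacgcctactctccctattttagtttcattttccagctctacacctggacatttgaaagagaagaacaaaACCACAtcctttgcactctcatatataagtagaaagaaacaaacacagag
Gzmb, chr14:56262335-56262584: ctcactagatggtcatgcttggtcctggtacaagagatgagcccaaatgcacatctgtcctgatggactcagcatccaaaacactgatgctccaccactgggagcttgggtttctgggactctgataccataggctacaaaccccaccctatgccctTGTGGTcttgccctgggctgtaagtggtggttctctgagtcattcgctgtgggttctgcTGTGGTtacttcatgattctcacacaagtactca
Xcl1, chr1:164935523-164935772: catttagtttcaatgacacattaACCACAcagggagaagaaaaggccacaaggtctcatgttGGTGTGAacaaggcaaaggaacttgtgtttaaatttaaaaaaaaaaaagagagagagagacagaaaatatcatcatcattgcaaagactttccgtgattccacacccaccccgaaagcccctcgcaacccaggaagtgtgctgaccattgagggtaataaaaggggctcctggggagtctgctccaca
Counted back from the start, Runx cores began at -50 in *Gzma*, at -93 and -34 in *Gzmb* and at -227 in *Xcl1*, which also held a T-box half-site at -188. Among 32851 promoter windows of the same length, 14.0% held the Runx core and 3.33% the T-box half-site. The Runx core was in 13.0% of windows of genes counted in the gate. It was in 4 of 11 windows of genes named lower with antibiotics and in 1 of 9 of those named higher. Windows of genes named higher than in NK cells held it in 5 of 13 cases. The T-box half-site was in 2 of 11, 0 of 9 and 2 of 13 of these windows. The windows of the gate genes *Ncr1* and *Cxcr6* held the Runx core too. A match describes letters in the window and nothing about binding. The T-box factor gene *Tbx21* had 27 and 7 UMIs in the gate (121 and 71.3 CPM, ratio 0.590 (0.217 to 1.39)), and *Runx3* stood at 259.6 and 285 CPM (ratio 1.10 (0.674 to 1.75)), so neither differed beyond counting error.

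Other chemokine genes were lower with antibiotics to unequal degrees. Of 6 cytokine and chemokine genes counted, 5 were lower, 4 of them by 1.5-fold or more, with a median log2 ratio of -0.81. All 1502 genes gave 829 lower, 284 of them by that much. *Ccl3*, a chemokine that recruits phagocytes and lymphocytes, ranged over 0, 0 and 29.7 per 10000 UMIs in the vehicle gate and 0, 0 and 4.5 in the antibiotic gate. Its summed level was 299.8 and 61.1 CPM, a ratio of 0.204 (0.0722 to 0.467), where the antibiotic gate rests on 6 UMIs in 6 cells. *Ccl4*, a closely related chemokine, ranged over 0, 3.5 and 42.5 and over 0, 0 and 31.5, and its summed level was 577 and 346 CPM, a ratio of 0.600 (0.398 to 0.881). In NK cells the value of both genes was higher in the antibiotic library instead, but a single NK cell held most of their UMIs there.

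*Ccl5*, a chemokine of memory and innate lymphocytes, hardly differed. It ranged over 0, 199 and 461 per 10000 UMIs in the vehicle gate and over 0, 153 and 508 in the antibiotic gate, and was found in 58 of 59 and 32 of 33 cells. The summed level was 19086 CPM and 17539 CPM, a ratio of 0.919 (0.868 to 0.972), and the direction turned under 3 of the other settings tried. B cells carried a *Ccl5* UMI in 27.2% and 22.6% of cells after thinning, far below the gate's 98.3% and 97.0%. *Ltb* was counted at 761 CPM with vehicle and 957 with antibiotics, a ratio of 1.26 (0.968 to 1.63), though it is also a B cell gene, with a UMI in 82.7% of thinned vehicle B cells. *Ifng*, which encodes the signature cytokine of ILC1, had only 19 UMIs in vehicle and 3 in antibiotic gate cells, a ratio of 0.359 (0.0681 to 1.22). A difference in *Ifng* was not detectable at this depth.

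Of 13 activating receptor and adaptor genes counted, 8 were lower with antibiotics, 6 of them by 1.5-fold or more, and 5 higher, with a median log2 ratio of -0.43. Of all 1502 genes, 829 were lower and 284 of them by 1.5-fold or more. The signaling adaptors *Tyrobp* (DAP12) and *Fcer1g* stood at 3719 and 3468 CPM with vehicle and 2231 and 2577 with antibiotics, ratios of 0.600 (0.514 to 0.697) and 0.743 (0.642 to 0.857). *Klre1*, which encodes a lectin-like receptor, had a ratio of 0.451 (0.321 to 0.621), and *Cd226*, which encodes DNAM-1, stood at 175 and 40.7 CPM from 39 and 4 UMIs, a ratio of 0.233 (0.0606 to 0.647). *Cd244* and *Slamf7*, both genes of SLAM family receptors, had ratios of 0.399 (0.182 to 0.789) and 0.350 (0.121 to 0.833). In the other direction, *Klrk1* had a ratio of 1.30 (1.07 to 1.57) and *Klrb1a* of 1.67 (1.03 to 2.67), while *Klrb1c*, which encodes NK1.1, was counted at 1056 CPM with vehicle and 1161 with antibiotics, a ratio of 1.10 (0.871 to 1.38).

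Among ILC1 markers, 6 of 11 counted genes were lower with antibiotics and 5 higher, with a median log2 ratio of -0.27, beside 829 lower and 673 higher of all genes. *Cd160* was counted at 729 CPM with vehicle and 448 with antibiotics, a ratio of 0.614 (0.430 to 0.862), and *Rgs1*, which dampens chemokine receptor signaling, at 577 and 255, a ratio of 0.441 (0.275 to 0.681). *Cd7*, which is not on the ILC1 marker list, was lower as well, at 0.587 (0.502 to 0.685). *Tmem176a*, *Tmem176b* and *Cxcr3* had ratios of 1.09 (0.624 to 1.85), 1.25 (0.85 to 1.81) and 1.31 (0.904 to 1.89), all with intervals that span 1, and the first 2 turned below 1 after thinning within the gate. The label genes *Cd200r1* and *Lag3* could not be resolved, at 0.683 (0.224 to 1.76) and 0.650 (0.215 to 1.67).

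*Il7r*, which encodes the IL-7 receptor α chain and so senses a survival cytokine, was the 1 counted ILC1 marker that was 1.5-fold or more higher with antibiotics. It was counted at 0 UMIs in most cells of both libraries, with the highest cell at 14.9 per 10000 with vehicle and 17.7 with antibiotics. A UMI was present in 13 of 59 vehicle and 13 of 33 antibiotic cells, or in 11.9% and 33.3% after thinning, against 0.433% and 1.45% of thinned B cells. The summed level was 85.0 and 275 CPM, a ratio of 3.23 (1.73 to 6.15), beside 2.76 over all called barcodes. In barcodes of at most 50 UMIs, which mostly hold free RNA, *Il7r* stood at 78.8 and 176 CPM, so it was higher there too, and the part of free RNA in the gate's ratio was not tested.

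Of 10 survival and death genes counted, 6 were higher with antibiotics, 4 of them by 1.5-fold or more, and 4 were lower, 2 of them by 1.5-fold or more, with a median log2 ratio of 0.33. Of all 1502 genes, 673 were higher. *Bcl2*, which blocks mitochondrial apoptosis, was counted at 519 CPM with vehicle and 815 with antibiotics, a ratio of 1.57 (1.17 to 2.10), beside 1.67 over all called barcodes. The lymphocyte GTPase genes *Gimap5* and *Gimap6* had ratios of 1.94 (1.37 to 2.75) and 1.56 (1.23 to 1.97). *Gimap7* ran the other way, at 0.530 (0.347 to 0.789), so the family was split. *Id2*, the factor that all innate lymphoid cells need, was counted at 1915 CPM with vehicle and 2577 with antibiotics, a ratio of 1.35 (1.15 to 1.58), and *Rora* and *Hhex*, both factors of ILC development, had ratios of 2.85 (1.01 to 8.30) and 5.20 (2.02 to 15.0). *Rora* rested on 8 and 10 UMIs and *Hhex* on 7 and 16, below the limit of 30 used for counts of genes. *Hhex* is also a B cell gene, found in 22.7% of thinned vehicle B cells.

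*Cirbp* and *Rbm3*, cold-inducible RNA-binding proteins, stood at 206 and 510.2 CPM with vehicle and 581 and 1100.0 with antibiotics. Their ratios were 2.82 (1.88 to 4.25) and 2.16 (1.64 to 2.83), beside 2.68 and 1.94 over all called barcodes. *Rbm3* was found in 52 of 59 and 33 of 33 gate cells, in 44.1% and 84.8% of thinned gate cells and in 49.0% and 76.4% of thinned B cells, so that both classes differed alike between the libraries. *Nfkbia*, the feedback inhibitor of NF-κB, was counted at 112 CPM with vehicle and 356 with antibiotics, a ratio of 3.19 (1.85 to 5.55), beside 0.996 over all called barcodes, 2.73 in NK cells and 1.06 in T cell receptor-positive cells. *Ifngr1*, a chain of the IFN-γ receptor, had a ratio of 2.49 (1.75 to 3.54), and *Tsc22d3*, a glucocorticoid-induced gene, of 2.69 (1.47 to 4.98). The splicing factor gene *Srsf5* had a ratio of 2.20 (1.52 to 3.18), and the predicted genes *Gm8730* and *Gm6133* of 2.20 (1.5 to 3.22) and 3.19 (1.57 to 6.64), where reads shared with near-identical copies may be split.

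The inducible HSP70 genes ran opposite to the cold-inducible genes. Of 14 heat shock and stress genes counted, 6 were 1.5-fold or more lower with antibiotics and 5 that much higher, with a median log2 ratio of -0.28. For all 1502 genes the shares at that fold were 18.9% lower and 9.85% higher. *Hspa1a* had 74 UMIs in 16 of 59 vehicle gate cells and 0 in the antibiotic gate, at least 10.8-fold lower against a floor of 3 UMIs over the gate cells of that library. *Hspa1b* had 32 and 0 UMIs, at least 4.69-fold lower. These near-identical genes can share reads, and over all called barcodes their ratios were 0.146 and 0.0494. *Hspa5* and *Dnaja1*, chaperones of the endoplasmic reticulum and the cytosol, had ratios of 0.358 (0.188 to 0.633) and 0.495 (0.289 to 0.809). *Hspa1a* was found in 27.1% and 4.95% of thinned B cells, more than the 16.9% and 0% of thinned gate cells, and its level in barcodes of at most 50 UMIs was 382 and 57.3 CPM. The part of free RNA in the gate's values was not tested.

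Of 19 S100, galectin and actin genes counted, 17 were lower and 11 of them by 1.5-fold or more, with a median log2 ratio of -0.62. Over all 1502 genes, 829 were lower and 284 of them by 1.5-fold or more. *S100a4*, a calcium-binding protein of motile lymphocytes, was counted at 873 CPM with vehicle and 194 with antibiotics, a ratio of 0.222 (0.131 to 0.356), beside 0.490 over all called barcodes. It was found in 43 of 59 and 9 of 33 gate cells, in 55.9% and 21.2% of thinned gate cells and in 1.24% and 0.483% of thinned B cells. *Lgals1*, which encodes galectin-1, was counted at 1459 CPM with vehicle and 387 with antibiotics, a ratio of 0.265 (0.184 to 0.372), and *Actg1* and *Tmsb4x*, for γ-actin and its monomer-binding partner thymosin β4, had ratios of 0.506 (0.416 to 0.613) and 0.613 (0.578 to 0.649). *Plac8* rested on 40 and 2 UMIs, a ratio of 0.114 (0.0133 to 0.439), and its direction turned when barcodes were thinned before gating.

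The Ly49 genes among the lower genes traced to few cells. *Klra4* had 55 UMIs in the vehicle gate, 67.3% of them in 1 cell, and 0 in the antibiotic gate, at least 8.06-fold lower against the floor of 3 UMIs. *Klra8* had 41 and 2 UMIs, a ratio of 0.111 (0.0130 to 0.427). All of these UMIs lay in the cells with more NK than ILC1 markers, and both genes had no UMI in either library in gate cells with 2 or more *Cxcr6* UMIs.

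MHC class I genes were lower by smaller steps. Of 18 counted, 14 were lower and 6 of them by 1.5-fold or more, beside 829 and 284 of all 1502 genes. Their median log2 ratio was -0.41. *B2m*, the shared light chain, was counted at 7442 CPM with vehicle and 4665 with antibiotics, a ratio of 0.627 (0.564 to 0.696), and the heavy chains *H2-K1* and *H2-D1* had ratios of 0.681 (0.581 to 0.795) and 0.810 (0.720 to 0.911). Oxidative phosphorylation genes were lower in 47 of 55 cases, 19 of them by 1.5-fold or more, with a median of -0.40. Glycolysis genes were lower in 8 of 8, 2 by 1.5-fold or more, but with a median of -0.12, close to that of all genes, which turned positive under 2 of the other settings.

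Ribosomal protein genes took a larger share of the antibiotic gate. They summed to 235805 CPM with vehicle and 311191 CPM with antibiotics. Of 80 counted, 76 were higher, 12 of them by 1.5-fold or more, with a median log2 ratio of 0.41. Among all 1502 genes, 673 were higher and 148 of these by that much. CPM are shares of a fixed total, so a larger ribosomal share leaves less for all other genes. Scaled without ribosomal protein UMIs, 241 genes were 1.5-fold or more higher in place of 148, and the ratio of *Gzmb* stayed below 1.

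Interferon response genes showed no common shift. Of 13 counted, 9 were lower and 4 higher, beside 829 lower and 673 higher of all 1502 genes. Their median log2 ratio of -0.23 turned positive after thinning and with genes of 100 UMIs or more. *Ifi203* and *Ifi47* had ratios of 0.942 (0.560 to 1.54) and 0.878 (0.511 to 1.46). *Ly6c2*, an interferon-responsive gene of NK cells and effector lymphocytes, was higher with antibiotics, at 80.6 and 224 CPM, a ratio of 2.78 (1.42 to 5.50). Of the proliferation genes only 3 had enough UMIs to count, and *Stmn1* had 21 UMIs in the vehicle gate, of which 90.5% came from 1 cell, and 0 in the antibiotic gate.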

How the data were processed

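Liver CD45+ cells of 1 vehicle and 1 antibiotic library were sequenced after Chromium 3′ v2 capture. The authors deposited unnormalized UMI counts per gene and barcode, without cell annotation. The submitters' processing notes name Cell Ranger, bcl2fastq and the mm10 build, without versions. Both matrices were gated as described above, with doublets kept. The members and gene lists were chosen with earlier results of these data known.

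UMIs were summed over the cells of a class and expressed as CPM. No test was run, since each condition is 1 library. Ratios carry exact conditional Poisson intervals and shares Clopper-Pearson intervals, both at 95% and for counting error only. A gene was counted with 30 or more UMIs over both groups compared, and the fold threshold was 1.5. Log2 ratios had 0.5 added to each count. A gene with no UMI in a class was set against a floor of 3 counts. The ratio and interval code was tested on simulated data. Named genes were the 10 higher and 10 lower by the interval bound nearest 1, among genes of 100 CPM or more in the higher library, without gate, ribosomal protein, mitochondrial, hemoglobin, immunoglobulin, T cell receptor segment and other cell types' marker genes. The gate and NK cells were compared by the same rule in both libraries. A few genes that met the rules are not reported here. Genes of the ILC1, NK, transcription factor, granule, cytokine and receptor lists could be named, as could the 6 most abundant genes of each other list.

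Thinning drew 1500 UMIs per cell without replacement, with 20 draws for the gate. B cells served as a class that should lack most ILC1 transcripts. Doublets were scored with Scrublet in scanpy 1.11.5 at an expected 6%, with thresholds of 0.225 and 0.313. Gene symbols with more than 1 identifier were left out of the counts and rankings of genes. The marker *Itgam* is such a symbol, and its values come from its first identifier. Of 28692 identifiers, 98.8% were found in GENCODE vM21. Scripts ran under Python 3.11.15 with scipy 1.17.1, numpy 2.4.6, anndata 0.12.19, pandas 2.3.3 and matplotlib 3.10.9. Alternatives were other UMI, mitochondrial and gate limits, thinning, leaving out doublets, other scalings, a mean over cells and other count minimums.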

Additional observations from a re-analysis of the deposited data

Results flagged for a closer look

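4 results ran in opposite directions in the classes or libraries compared, and none of these differences was tested. The antibiotic over vehicle ratio of *Ccl3* was 0.204 in ILC1 gate cells and 2.34 in *Eomes*+ NK cells. That of *Ccl4* was 0.600 in the gate and 2.83 in NK cells. As a result *Ccl4* stood at 1.46 times the NK level in the vehicle gate and at 0.309 times in the antibiotic gate. In the NK cells of the antibiotic library, 1 cell held 44 of the 65 *Ccl4* UMIs and 28 of the 45 *Ccl3* UMIs. *Apoe* had a ratio of 2.44 in the gate and 0.290 in the T cell receptor-positive cells, and 1 antibiotic gate cell, scored as a doublet and rich in B cell UMIs, held 23 of its 30 UMIs.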

How the results depend on the processing

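No paired analysis was possible because each condition was 1 library, and leaving out a replicate was not possible for the same reason. Of the shares computed under other settings, 52 stayed within their interval and 18 did not. The ratio of the gate's share was below 1 in every setting run, from 0.426 when *Trbc*, *Trdc* and *Tcrg-C* UMIs had also to be 0, and from 0.530 to 0.724 in the others. That strict gate left too few cells for expression values.

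In the order vehicle then antibiotics, the strict gate held 0.0333% and 0.0142% of called barcodes, 6.0% and 7.69% of *Ncr1*+ cells without CD3 or *Trac*, and 23.1% and 25% of cells with *Cxcr6* or *Eomes*. With 2 or more *Cxcr6* UMIs these values were 0.444% and 0.241%, 16.6% and 20.7%, and 36% and 42.5%. With up to 1 CD3 or *Trac* UMI allowed, an alternative chosen after seeing the data, the gate held 1.00% and 0.723% of called barcodes. With 2500 or more UMIs it held 28.6% and 44.0% of *Ncr1*+ cells without CD3 or *Trac*, and with thinning before the gate 16.5% of those in the vehicle library.

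Counts of genes 1.5-fold or more higher and lower with antibiotics were 55 and 102 with thinning before the gate, 55 and 121 with thinning after it, 80 and 180 with 2 or more *Cxcr6* UMIs, 794 and 843 at a minimum of 10 UMIs and 31 and 72 at 100 UMIs. Scaled without ribosomal protein UMIs (added after seeing the data), 241 were higher. Against NK cells in both libraries, they were 14 and 14 with thinning before the gate, 17 and 22 after it, 128 and 115 at 10 UMIs and 12 and 10 at 100 UMIs. There 21 were higher with 2 or more *Cxcr6* UMIs, 52 with up to 1 CD3 or *Trac* UMI, and 20 lower with 2500 or more UMIs. Thinning and the minimum of UMIs change how many genes can be counted.

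Of the named genes, *Plac8* turned to a log2 ratio of 0.89 with thinning before the gate, and *Ccl5* to 0.17 with 2 or more *Cxcr6* UMIs, 0.010 without gate cells with more NK than ILC1 markers and 0.028 with scaling that leaves out ribosomal protein UMIs. *Klra4* and *Klra8* read 1.67 and 1.26 with 2 or more *Cxcr6* UMIs and without those NK-marker cells, where both libraries were at 0 UMIs and the value comes from the added count alone. Genes whose interval spanned 1 also turned across settings, *Gzmc* from -1.55 to 1.67, *Cd69* from -1.14 to 0.24, *Tmem176a* from -0.75 to 0.51, *Tmem176b* from -0.03 to 0.59 and *Ltb* from -0.05 to 0.48. Against NK cells, *Apoe* turned to -0.029 in the vehicle library with thinning before the gate and to -0.53 in the antibiotic library without cells of 10 or more B cell UMIs. Leaving out cells by NK markers or B cell UMIs was chosen after seeing the data. *Gzmb* stayed between -2.06 and -1.57, *Xcl1* between -1.42 and -1.08 and *Il7r* between 1.12 and 1.98. The cause of the other changes was not tested. The 59 and 33 cells limit every value above.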
